A study of Oncorhynchus mykiss with 6 samples.

Results

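The miRNAs miR-142, miR-150, miR-155 and miR-223 are the best-known miRNA markers of white blood cells, and their rows were followed here in small RNA libraries from rainbow trout (Oncorhynchus mykiss) liver. A row was a member if its name held miR-142, miR-150, miR-155 or miR-223 in upper-case miR form, with any arm, letter, length variant or fish prefix. Among the 1427 small RNA sequences listed there were 13 members: 4 of miR-142, 2 of miR-150, 5 of miR-155 and 2 of miR-223. The libraries came from livers of juvenile wild-type fish whose strain is given as Walbaum, 3 from controls (replicates 3, 4 and 6) and 3 from fish fasted for 4 days (replicates 3, 4 and 5), the question being what a few days without food do to liver miRNAs. The labels state neither the diet of the controls nor whether the fish were bled, nor that each library is a separate fish, so the p-values cover only the variation among these libraries, part or all of which may be technical. Reads in the table ran from 737686 to 4203708 per library, and fasted replicate 3 stood apart with 15.1% of its mappable reads in the table, against 34.9 to 61.0% in the other 5.

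miRNAs silence target mRNAs mainly through the seed, bases 2 to 8 counted from the 5′ end, and each hairpin gives a 5p and a 3p arm. In mammals and zebrafish, miR-142 is made throughout the blood cell lineages. In mammals, miR-223 belongs to the myeloid lineage, above all granulocytes, miR-150 is abundant in mature lymphocytes, and miR-155 is induced when lymphocytes and macrophages are activated. A liver holds resident and circulating white cells, so such miRNAs appear in bulk liver RNA, where more cells and more RNA per cell cannot be told apart.

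The sequences carrying nearly all member reads are shown as deposited, with the seed in capitals, because the seed sets which rows can be added together. The 3p arm of miR-155 and the longest miR-142 variant are included for their structure.
dre-miR-142a-5p: cATAAAGTagaaagcactact
ssa-miR-142b-5p_L-2R+1: cATAAAGTagagagtactact
dre-miR-142a-3p_L-1R-1: gTAGTGTTtcctactttatgg
tni-miR-142a_L-1R+12: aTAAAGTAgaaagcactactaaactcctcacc
ipu-miR-150_R+1: tCTCCCAAtccttgtaccagtgt
fru-miR-223_R+1: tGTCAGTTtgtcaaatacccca
ssa-miR-155-5p: tTAATGCTaatcgtgataggggt
ssa-miR-155-3p_1ss13AC: cACCTAGCatgtcagcattagc

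The 13 rows fell into 8 seeds, and 1 of those seeds occurred in a row that was not a member. That row, the predicted small RNA PC-3p-73938_4, held 4 reads in all and shared the seed of the miR-155-3p row. The 2 miR-142-5p rows have the same seed and differ by the substitutions A12G and C15T, counted from the 5′ end of dre-miR-142a-5p, so they name separate sequences of 1 family and not length variants. The miR-142a-3p row, reverse-complemented, aligned with dre-miR-142a-5p over 20 bases with 2 mismatches, as the arms of a hairpin do. The longest variant, tni-miR-142a_L-1R+12, begins at the second base of dre-miR-142a-5p and runs 12 bases past its end. Its last 13 bases are the first 13 of the row ssa-mir-142a-1-p3, so this molecule reads through from the 5p arm into that neighbouring sequence; it was seen as 1 read, in fasted replicate 3. The 3 longer miR-155 rows each hold the whole of ssa-miR-155-5p with 3 to 5 further bases at the 3′ end. The second miR-150 row starts 3 bases earlier than the main one, which gives it another seed, and was seen as 2 reads.

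Together the 13 rows held 15666.5 reads, and 6 of them passed the count filter and were tested: dre-miR-142a-5p, dre-miR-142a-3p_L-1R-1, ssa-miR-142b-5p_L-2R+1, ipu-miR-150_R+1, fru-miR-223_R+1 and ssa-miR-155-5p. The other 7 rows held between 0.5 and 5 reads each and 13.5 in all, too few for any comparison. Fractions arise because some reads were divided between sequences in the deposited values.

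None of the leucocyte miRNAs passed the test for a difference after fasting. Of the 6 tested rows 0 passed a Benjamini-Hochberg adjusted p of 0.05 in edgeR's quasi-likelihood test, and 0 had an unadjusted p under 0.05; in all 309 tested rows 0 passed (0%) and 26 (8.41%) had an unadjusted p under 0.05. DESeq2 called 4 of the 309 rows (1.29%) and 0 of the 6. The fasted and control groups overlapped in all 6 rows after TMM scaling, while they did not overlap in 17.5% of the tested rows. Of the 6 rows 4 had a log2 fold change above 0 and 2 below, with a median of 0.28, beside 50.2% above 0 and a median of 0.01 over all tested rows. Levels below are CPM, reads scaled to a common library total, with TMM scaling, a correction for unequal library composition; each read is a whole small RNA, so no length correction applies. With scaling by library total alone, all 6 rows lay above 0, but the median of all tested rows then moved to 0.59, and 5 of the 6 rows lay above that shift, all but miR-155-5p. By definition a median has as many rows above it as below, and the margin of dre-miR-142a-5p was only 0.065.

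**Figure D1:**
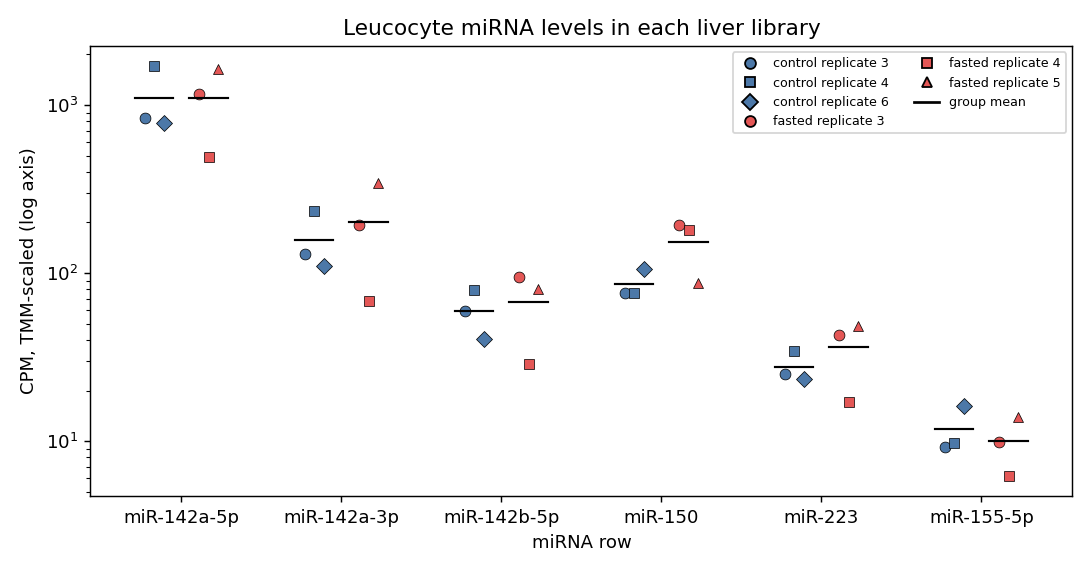
TMM-scaled CPM (log axis) of the 6 tested leucocyte miRNA rows, 1 point per library, with control libraries in blue, fasted libraries in red, the marker shape giving the replicate number, and a bar at each group mean (n = 3). The groups overlap for every row, and fasted replicate 4 is the lowest library for each miRNA except miR-150.

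The miR-142 family, which marks blood cells in general, made up most of the leucocyte signal, and its dominant row had nearly the same mean in both groups. The row dre-miR-142a-5p was the 60th most abundant of the 309 tested rows. It had 3122, 1390 and 2481 reads in control replicates 3, 4 and 6, which is 843, 1697 and 778 CPM. In fasted replicates 3, 4 and 5 it had 1402, 631 and 2360 reads, or 1159, 491 and 1639.98 CPM. The highest level was in control replicate 4 and the next in fasted replicate 5, while the lowest was in fasted replicate 4. The means were 1106 ± 513 CPM in the control group and 1097 ± 577 CPM in the fasted group (SD, n = 3), with a log2 fold change of -0.01 (SE 0.52; 95% interval -1.19 to 1.17; edgeR adjusted p = 0.991). This interval runs from 0.437 to 2.25 times the control level, so changes of about 2-fold in either direction were not excluded for this row. Without control replicate 4 the log2 fold change was 0.43, and without fasted replicate 5 it was -0.29. With the replicate number as a block it was -0.66, which was not called.

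The opposite arm and the second 5p sequence of miR-142 were also lowest in fasted replicate 4. The row dre-miR-142a-3p_L-1R-1 had 129.5, 236 and 109.7 CPM in control replicates 3, 4 and 6, and its fasted replicates 3, 4 and 5 had 193, 68.5 and 344 CPM. Its log2 fold change was 0.36 (SE 0.58; edgeR adjusted p = 0.900), and its 5.02-fold range over the 6 libraries was the widest of the members, against a median range of 2.83-fold over all tested rows. Both ends of that range were fasted libraries, and the log2 fold change was -0.14 without fasted replicate 5. The row ssa-miR-142b-5p_L-2R+1 had 59.1, 79.4 and 40.4 CPM in control and 94.3, 28.8 and 79.9 CPM in fasted replicates 3, 4 and 5, with a log2 fold change of 0.19 (SE 0.49; adjusted p = 0.921), which turned to -0.03 without control replicate 6 and -0.055 without fasted replicate 3. With the replicate number as a block the miR-142a-3p and miR-142b-5p values were -0.58 and -0.33, neither of them called. The share of miR-142b-5p in the miR-142-5p reads was 5.32% ± 1.09 in control and 5.90% ± 1.47 in fasted liver. The lowest such share was 4.47% (95% Wilson interval 3.52 to 5.65%), in control replicate 4, and the highest 7.52% (6.30 to 8.96%), in fasted replicate 3; such intervals cover counting error only. Added together by their shared seed, the miR-142-5p rows averaged 1169.7 ± 496 CPM in the control group and 1146 ± 582 CPM in the fasted group (log2 fold change -0.03, SE 0.50; edgeR adjusted p = 0.982 over all seed groups tested, of which 0, or 0%, were called).

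The balance between the arms of miR-142 does not depend on the scaling between libraries. The 5p reads here and in the ratio test below are those of miR-142a-5p and miR-142b-5p together, while the 3p reads are those of the miR-142a-3p row alone. There were 6.96, 7.54 and 7.46 5p reads per 3p read in control replicates 3, 4 and 6. The fasted replicates 3, 4 and 5 had 6.48, 7.59 and 5, so the 2 lowest ratios were fasted and the highest was fasted too. The 3p arm made up 16.7% of the miR-142 reads in fasted replicate 5 (95% Wilson interval 15.4 to 18.0%), above the 11.6 to 13.4% of the other libraries. The difference in log2 ratio, fasted minus control, was -0.22 (SE 0.39; 95% interval -1.04 to 0.59; limma adjusted p = 0.634 over 29 miRNA families with both arms, of which 2, or 6.9%, were called). Without fasted replicate 5 it was -0.06. The other 3 leucocyte families had no pair of arms with enough reads under the 5p and 3p names.

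The level of miR-223, the granulocyte and monocyte miRNA, was lowest in the same library as miR-142 and did not pass the test. The row fru-miR-223_R+1 had 93, 28.5 and 75 reads in control replicates 3, 4 and 6, or 25.1, 34.2 and 23.5 CPM. It had 52, 22.5 and 70 reads in fasted replicates 3, 4 and 5, or 43.0, 17.1 and 48.6 CPM. The fasted libraries again held the lowest value and the 2 highest values, around all 3 controls. The means were 27.6 ± 5.76 CPM in the control group and 36.3 ± 16.8 CPM in the fasted group, a log2 fold change of 0.41 (SE 0.45; 95% interval -0.63 to 1.45; edgeR adjusted p = 0.779). Without fasted replicate 4 the log2 fold change was 0.73, and without fasted replicate 5 it was 0.26, neither of them called. There were 34.8 to 51.1 miR-142-5p reads for each miR-223 read in the control libraries and 29.2 to 35.4 in the fasted ones, a 1.75-fold range overall. A row outside the naming rule, ola-mir-223-p5_1ss9AC, held 69.5 reads and had 25.97% (95% Wilson interval 15.0 to 42.0%) of its sum with fru-miR-223_R+1 in control replicate 4, its highest share, and 11.8% (4.00 to 29.0%) in fasted replicate 4, its lowest.

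The lymphocyte miRNA miR-150 was the member nearest to a change, with a higher mean in fasted liver that did not pass the test. The row ipu-miR-150_R+1 had 282, 62.5 and 337 reads in control replicates 3, 4 and 6, or 76.1, 75.7 and 105.6 CPM. In fasted replicates 3, 4 and 5 it had 233.5, 232 and 126 reads, or 193, 180.5 and 87.6 CPM. Fasted replicates 3 and 4 lay above every control, while fasted replicate 5 lay among the controls. The means were 85.8 ± 17.2 CPM in the control group and 154 ± 57.8 CPM in the fasted group, a log2 fold change of 0.84 (SE 0.40; 95% interval -0.08 to 1.75). Its edgeR adjusted p was 0.595 and its unadjusted p of 0.067 ranked 35th of the 309 rows. As CPM by library total, with no TMM scaling, miR-150 had 67.1, 63.6 and 80.4 in the control libraries and 317, 162 and 106 in fasted replicates 3, 4 and 5, and the groups no longer overlapped. On that scale 24.6% of all tested rows lay higher in every fasted library, so the separation of miR-150 there was shared with many other rows. The log2 fold change with the library total was 1.47 (edgeR adjusted p = 0.230), or 0.88 above the median shift of all rows. Without fasted replicate 5 it was 1.25 under TMM (edgeR unadjusted p = 0.009, adjusted p = 0.239). It was 0.69 without fasted replicate 3, the library that stood apart, and also 0.69 without fasted replicate 4. Leaving out 1 control library gave 0.75 to 1.03.

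**Figure D2:**
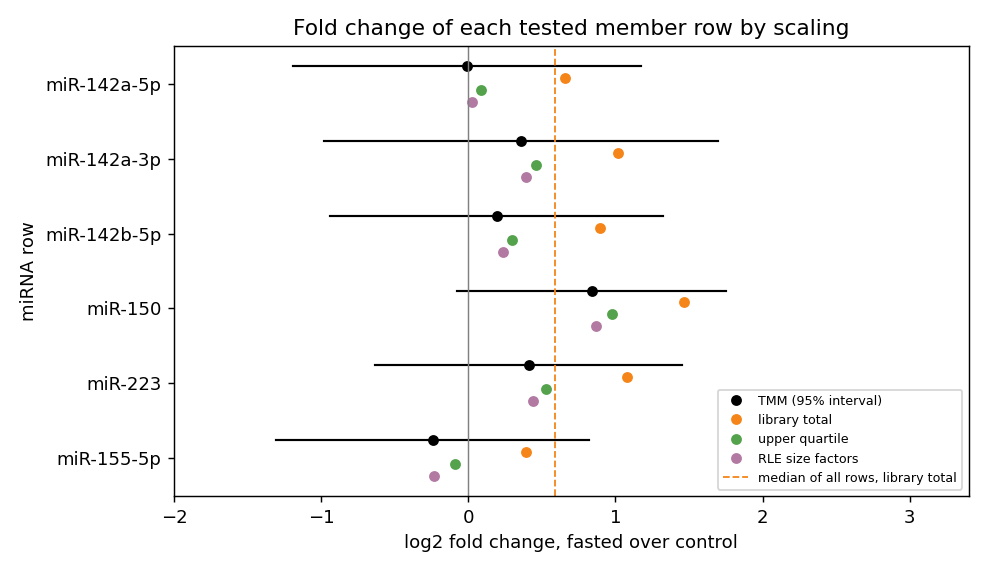
Log2 fold change, fasted over control, of each tested row under 4 scalings, with the 95% interval for TMM and a dashed line at 0.59, the median of all tested rows when only library totals are used. Every TMM interval includes 0, and miR-150 has the highest point under each scaling.

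The activation-linked miR-155 was the scarcest of the 4 families. The row ssa-miR-155-5p had 34, 8 and 52 reads in control replicates 3, 4 and 6, or 9.18, 9.77 and 16.3 CPM. It had 12, 8 and 20 reads in fasted replicates 3, 4 and 5, or 9.92, 6.23 and 13.9 CPM. Control replicate 6 was the highest and fasted replicate 4 the lowest. With 8 reads, the exact Poisson 95% interval of the level in fasted replicate 4 was 2.69 to 12.3 CPM, which holds the levels of 3 of the other 5 libraries. The means were 11.7 ± 3.95 CPM in the control group and 10.02 ± 3.84 CPM in the fasted group, a log2 fold change of -0.24 (SE 0.46; 95% interval -1.31 to 0.82; edgeR adjusted p = 0.903). The sign turned to 0.39 with library totals, below the median shift of all rows, and to 0.10 without control replicate 6. The passenger arm, ssa-miR-155-3p_1ss13AC, had 5 reads in all, too few to compare. Of these 4 were in control libraries, which include replicates 3 and 6, the libraries with the most reads in the table.

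By mean CPM over the 6 libraries the order of the levels ran from miR-142a-5p (1101) through miR-142a-3p (180.1), miR-150 (119.9), miR-142b-5p (63.6) and miR-223 (32.1) to miR-155-5p (10.9). The first pair and the last 2 pairs of neighbours kept this order in 6 of 6 libraries. miR-150 changed places with miR-142a-3p in fasted replicate 4 and with miR-142b-5p in control replicate 4. In fasted replicate 3 miR-142a-3p and miR-150 were level, with 234 and 233.5 reads deposited and the same CPM, 193, after rounding. How readily a sequence is captured in a small RNA library differs between miRNAs, so the order is one of reads.

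The make-up of the leucocyte reads differed between libraries mainly in the balance between miR-142 and miR-150. The miR-142 share ran from 74.1% in fasted replicate 4 to 94.3% in control replicate 4. miR-142 held 90.3% ± 3.97 of the reads of the 13 rows in the control group and 84.2% ± 9.61 in the fasted group; miR-150 held 6.69% ± 3.13 and 12.7% ± 9.51. The lowest miR-150 share was 3.58% (95% Wilson interval 2.78 to 4.52%), in control replicate 4, and the highest 22.8% (20.4 to 25.5%), in fasted replicate 4; fasted replicate 5, with 3.95% (3.33 to 4.69%), was nearly as low as the lowest control. Set against miR-142-5p, there were 8.44, 4.30 and 12.9 miR-150 reads per 100 in control replicates 3, 4 and 6, while fasted replicates 3, 4 and 5 had 15.4, 34.7 and 5.09. This 8.09-fold range is far wider than the 1.75-fold range between miR-142-5p and miR-223. It is also wider than that of either row alone, 2.56-fold for miR-150 and 3.46-fold for dre-miR-142a-5p in CPM. In fasted replicate 4, where the ratio was highest, miR-150 had 180.5 CPM, below its 193 CPM in fasted replicate 3. The row dre-miR-142a-5p was at its lowest there, with 491 CPM. The miR-223 share was 2.01% ± 0.332 in control and 2.31% ± 0.194 in fasted liver, and that of miR-155 1.00% ± 0.582 and 0.709% ± 0.154.

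**Figure D3:**
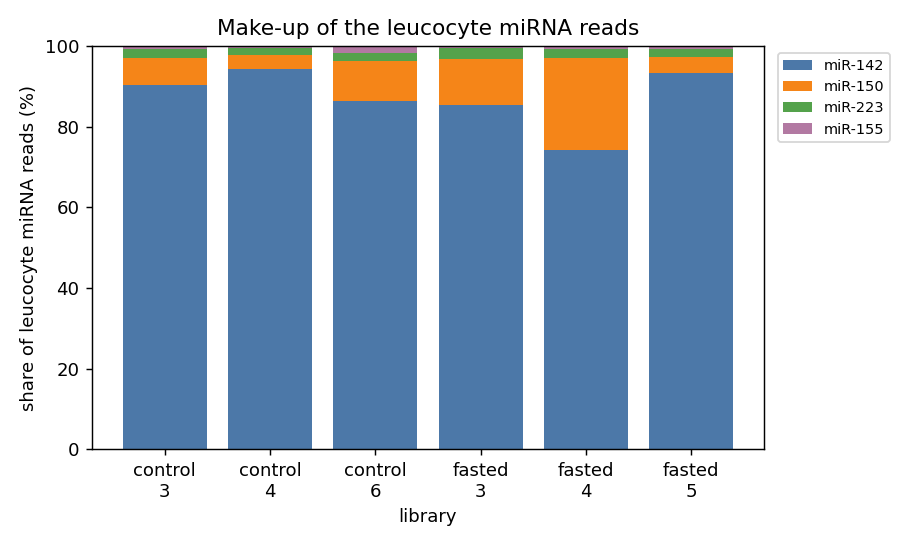
Share of the reads of the 13 leucocyte miRNA rows (vertical axis, %) that belongs to miR-142, miR-150, miR-223 and miR-155 in each of the 6 libraries. The miR-150 band is widest in fasted replicate 4, at 22.8%, and narrow in control replicate 4 and fasted replicate 5, at 3.58 and 3.95%.

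Over the 6 libraries miR-142 and miR-223 had the highest r of the 6 pairs of families, which did not pass the adjusted threshold. The log2 CPM of dre-miR-142a-5p and fru-miR-223_R+1 had a Pearson r of 0.90 (exact permutation p = 0.019, adjusted p = 0.117 over 6 pairs) and a Spearman rho of 0.83 (exact permutation p = 0.058, adjusted p = 0.350). Without the 2 libraries farthest from the median of miR-142 the r was 0.96 over the remaining 4, a value that miR-150 and miR-155 also reached (from -0.41 to 0.96) when treated likewise, so 4 libraries do not single out a pair. The other 5 pairs had r between -0.50 and 0.46 and adjusted p-values of 0.503 or more by exact permutation. The relation of miR-150 to miR-142 was the lowest at r = -0.50 (rho = -0.37). Without the 2 libraries farthest from the median of miR-142 its r was 0.11, over 4 libraries, too few to say what the relation rested on. The families share a scaling factor in each library, and each group holds too few libraries for an r of its own.

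The seed groups of other families whose log2 CPM was most like that of each member were found by Pearson r over the 6 libraries, given as a description. For miR-142-5p, among 221 candidates, they were the seed group of ola-mir-223-p5_1ss9AC (r = 0.95), that of ssa-miR-15c-2-3p_L+2R-2 (0.91) and miR-223 itself (0.90). For miR-223 they were miR-142-3p (0.95), dre-miR-1 (0.92) and miR-142-5p (0.90). The nearest to miR-150, among 222 candidates, were ssa-miR-7a-3-3p_1ss22AC (0.97), the predicted PC-3p-6947_100 (0.94) and dre-miR-130a_R-1_1ss21AT (0.93), none of them a leucocyte marker in the lists used here. The nearest to miR-155 were fru-miR-16_R-1_1ss17TC (0.82), PC-3p-1631_633 (0.81) and dre-miR-458-3p (0.80). These r values were the highest of many candidates over 6 libraries, so none alone singles out a relation. Some of the nearest groups were scarce. The row ola-mir-223-p5_1ss9AC had 3 reads in fasted replicate 4. The groups of ssa-miR-15c-2-3p_L+2R-2 and ssa-miR-7a-3-3p_1ss22AC ran from 5.39 to 14.1 and from 7.19 to 16.2 CPM.

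The summed erythrocyte markers, the muscle miRNA miR-1 and the endothelial miR-126 were lowest in the same library as miR-142 and miR-223, fasted replicate 4. How many of all tested rows were lowest in that library was not counted, so a shared lowest library is not a link between these miRNAs. Of the erythrocyte list, miR-451 and miR-144 summed to 3325, 4302 and 2265 CPM in control replicates 3, 4 and 6; for fasted replicates 3, 4 and 5 the sums were 2127, 1268 and 7435 CPM; miR-486, the third of that list, had 0 rows. As for miR-142, the lowest library was fasted replicate 4 and the 2 highest were fasted replicate 5 and control replicate 4. Fasted replicate 3 differed, with miR-142 above its average and miR-144 below. Of the 5 tested erythrocyte rows 4 had a log2 fold change above 0 (median 0.09). The muscle list, of which miR-1 was the 1 tested row, summed to 51.0, 48.8 and 13.9 CPM in control and 102, 9.73 and 106 CPM in fasted replicates 3, 4 and 5. Of its scarcer members, miR-133 was lowest in control replicate 6, at 0.470 CPM against 2.72 CPM in fasted replicate 4. The other, miR-206, had at most 0.810 CPM in any library. The hepatocyte markers miR-122, miR-192 and miR-194 summed to between 414915 and 513536 CPM in control and between 269867 and 431925 CPM in fasted liver, between 140.4 and 544 times the sum of the leucocyte rows of the same library. The endothelial marker miR-126 had 14527, 12216 and 8376 CPM in control replicates 3, 4 and 6, while fasted replicates 3, 4 and 5 had 8320.0, 6104 and 8106 CPM. After TMM scaling every fasted library thus lay below every control for miR-126, which was not so for miR-142. The nearest values were close, 8320.0 CPM in fasted replicate 3 and 8376 CPM in control replicate 6. Marker sums were not compared by library total. The stromal list (miR-143, miR-145, miR-199 and miR-214) ran from 51383 to 70423 and from 26893 to 57073 CPM, and the pancreas list from 113.5 to 134 and from 174 to 185 CPM. Within the hepatocyte and stromal lists miR-194 and miR-214 had slightly higher fasted means, and the other members lower ones. The pancreas members miR-375, miR-216 and miR-217 each overlapped between the groups, although their sum did not. Groups failed to overlap in 17.5% of all tested rows. The part of these cells in the leucocyte values was not tested.

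**Figure D4:**
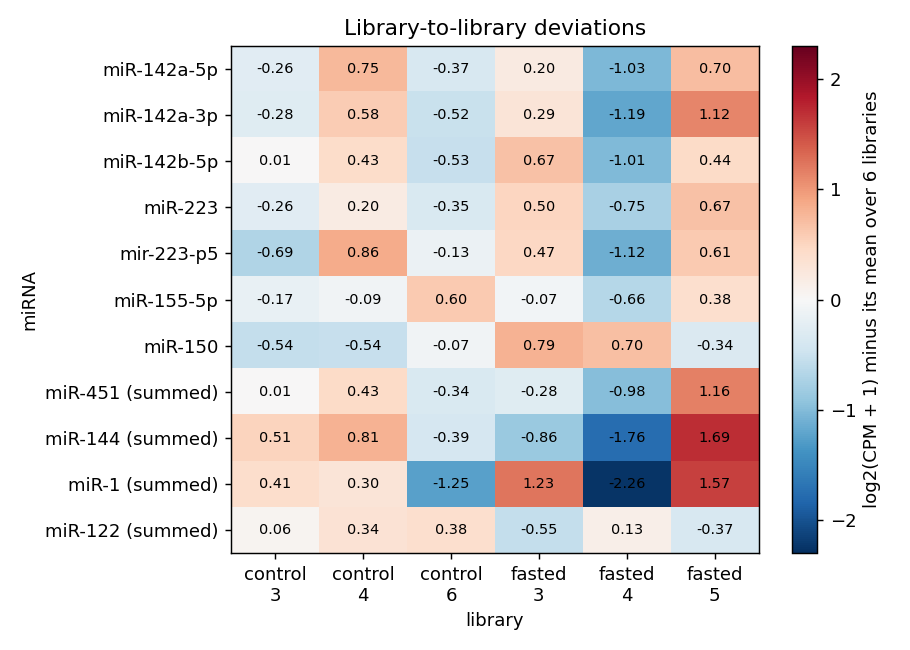
Log2(CPM + 1) of each miRNA minus its own mean over the 6 libraries (colour and printed value), for the leucocyte rows and for summed markers of erythrocytes (miR-451, miR-144), muscle (miR-1) and hepatocytes (miR-122). The miR-142 and miR-223 rows are lowest in fasted replicate 4, as are miR-451, miR-144 and miR-1, whereas miR-150 is above its mean there.

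The levels of other miRNAs known from immune responses also gave no call in edgeR. The list of miR-146, miR-181, miR-21, miR-462 and miR-731 held 75 rows, of which 21 were tested: 0 passed the threshold in edgeR (0% of all tested rows did) and 3 had an unadjusted p under 0.05 (8.41% of all tested rows). Among these 21 rows 8 had a log2 fold change above 0 and 13 had one below 0 (median -0.31), beside 50.2% above 0 in all tested rows. The main seed group of miR-146, a brake on innate immune signalling, averaged 28155 ± 7792 CPM in the control group and 14846 ± 4111 CPM in the fasted group (log2 fold change -0.92, SE 0.34, edgeR adjusted p = 0.482). Every fasted library lay below every control, narrowly so for fasted replicate 5 (19237 CPM) and control replicate 6 (19944 CPM). The main seed group of miR-181, which acts in lymphocyte development in mammals, had 7493 ± 410 and 11635 ± 2240 CPM, with every fasted library above every control (0.63, SE 0.28, edgeR adjusted p = 0.533). Both separations are of TMM-scaled CPM and were not checked with library totals. Groups failed to overlap in 17.9% of all tested seed groups. The main seed group of miR-21 had a log2 fold change of -0.77 (SE 0.40), and those of miR-462 and miR-731, a pair induced by interferon in fish, 0.19 (SE 0.40) and 0.34 (SE 0.41), all 3 with overlapping groups. The arm ratio of miR-731 was 1 of the 2 called among 29 families (6.9%). Its log2 5p to 3p ratio differed by 1.94, fasted minus control (SE 0.54, limma adjusted p = 0.037). Control replicates 3, 4 and 6 had log2 ratios of 1.80, 2.25 and 2.11. Those of fasted replicates 3, 4 and 5 were 5.56, 2.97 and 3.44. The highest was thus in fasted replicate 3, the library that stood apart, and the miR-731 difference was not refitted without it. The arm ratios of miR-146, miR-181 and miR-21 were not called.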

How the data were processed

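Small RNA of trout liver was sequenced in 3 control and 3 fasted libraries. Per the submitters' processing notes, Bowtie 1.1.1 was used; the trimming and counting programs and the build are not stated there or in the labels. The deposited read summary holds read counts for each library. In the deposited miRNA table the raw columns are expected counts, since 14.4 to 20.8% of values per library were not whole (tolerance 1e-06), so related rows share reads. The deposited normalized signal is that count divided by a library size parameter of the authors (0.506 to 2.30), with 0 written as 0.001.

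Expected counts were rounded and fitted in R 4.3.3 with edgeR 4.0.16 (quasi-likelihood test, TMM factors 0.762 to 1.64, no covariate). filterByExpr (minimum count 10, minimum total 15) kept 309 rows with 99.9% of counts. p-values were adjusted over all rows (Benjamini-Hochberg, threshold 0.05). A second fit summed known rows of the same miRNA number and seed. Arm ratios used limma 3.58.1 on log2((5p CPM + 1)/(3p CPM + 1)), for families averaging at least 10 CPM in each arm. Alternatives included DESeq2 1.42.0, other scalings and leaving out each library. Correlations used scipy 1.17.1. The edgeR and limma steps were tested on simulated data. No 2 libraries were duplicates (smallest chi-square per degree of freedom 101.4). The members and lists were chosen with earlier results of these data known. Every tested member row is named, and likeness took the 3 nearest seed groups. A count of 3, the floor, equals 0.810 to 3.66 CPM. No trout miRNA positions were used here.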

Additional observations from a re-analysis of the deposited data

How the results depend on the processing

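No leucocyte row or seed group was called under any of the 14 alternatives, and the lowest adjusted p among their fold changes was 0.203. Over all rows edgeR called 11 without the count filter and DESeq2 called 4; over all seed groups these gave 8 and 3. Leaving out 1 library gave 0 to 1 called rows, 3 to 5 leucocyte rows above 0, and a miR-142 arm difference between -0.36 and -0.06. The miR-150 values, by row and by seed, and the miR-223 seed group (lowest value 0.0034) kept their sign in all 14 alternatives. Of 154 refitted values 24 changed sign, and the cause was not tested. With library totals dre-miR-142a-5p was at 0.65 and its seed group at 0.67, ssa-miR-155-5p at 0.39 and its seed group at 0.38. dre-miR-142a-5p was at 0.088 with the upper quartile. With RLE size factors it was at 0.0256 and its seed group at 0.0157, and DESeq2 gave the same rounded values. Leaving out 1 library took dre-miR-142a-5p from -0.29 to 0.43, its seed group from -0.38 to 0.35, dre-miR-142a-3p_L-1R-1 from -0.14 to 0.76 and its seed group from -0.25 to 0.76, ssa-miR-142b-5p_L-2R+1 from -0.055 to 0.54, ssa-miR-155-5p from -0.44 to 0.10 and its seed group from -0.54 to 0.22; fru-miR-223_R+1 stayed between 0.26 and 0.73. Replicates 3 and 4 exist in each group, and the labels do not say that a shared number is a pair. The deviations of same-numbered libraries from their group means had r = 0.44 and r = -0.04 across 309 rows. Differently numbered libraries ran from -0.49 to 0.50. Deviations from means of 3 libraries are not independent, so these r values cannot settle the pairing, and the main fit took no pairs. With the replicate number as a block, which leaves only replicates 3 and 4 to compare, 1 of 6 rows lay above 0, and 0 rows were called. In that fit dre-miR-142a-5p was at -0.66 and its seed group at -0.61. The others were miR-142a-3p at -0.58, its seed group at -0.54, miR-142b-5p at -0.33, miR-223 at -0.0303 and miR-150 at 1.30. Few reads limit miR-155: control replicate 4 and fasted replicate 4 held 8 each.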
